A study of Mus musculus with 8 samples.

Results

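The cAMP pathway of striatal projection neurons was read here at 9 genes, among 30175 gene names on the array. They had 19 of its 39429 non-control probes, and all 19 were bright enough to be tested. The 9 genes were Gnal, Gng7, Adcy5, Pde10a, Pde1b, Pde2a, Pde7b, Ppp1r1b and Arpp21. Every probe whose gene name equalled 1 of these symbols was taken, and the rule used names alone. Adcy5, Arpp21, Gng7 and Pde10a had 3 probes each, Gnal and Pde7b 2 each, and the other genes 1. Probes of a gene read the same samples and are not replicates of a genotype, and those of Arpp21 and of Gng7 are not all assigned to the same transcript.

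Striatal projection neurons, the GABA neurons that form most of the striatum, read dopamine and adenosine largely through cAMP. Golf, a G protein with an alpha subunit encoded by Gnal and a gamma subunit encoded by Gng7, links D1 dopamine and adenosine receptors to adenylyl cyclase 5, which makes cAMP. Phosphodiesterases break cAMP and cGMP down, and protein kinase A passes the signal on to phosphoproteins such as DARPP-32 (Ppp1r1b), which in its phosphorylated form inhibits protein phosphatase 1, and ARPP-21 (Arpp21).

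Gene expression had been measured by 2-colour microarray in striatum from adult female mice of the C57Bl/6j strain. The 4 wildtype samples had intact Brd2, and the 4 heterozygous (Brd2+/-) samples carried a gene-trap insertion in 1 copy of this gene, which encodes a chromatin reader of the BET family. All mice came from matings between heterozygous parents after repeated backcrossing; no driver limited to a cell type is named for the insertion. The tissue label names both prefrontal cortex and striatum, whereas the descriptions name striatum alone.

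The question was how the loss of 1 Brd2 copy relates to striatal expression of these genes. Values are normalised log2 intensities, and a difference is the heterozygous minus the wildtype value; its standard error (SE) comes from limma. Replicates 1 and 3 of each genotype were labelled with Cy3 and replicates 2 and 4 with Cy5, so the level of a sample is also given relative to the mean of the wildtype samples of its own dye. With 2 wildtype samples per dye, such relative values of the wildtype mirror each other. The labels do not say whether each sample was a separate animal, and p-values measure only the spread between these samples. In whole tissue, fewer projection neurons and less of a transcript per neuron cannot be told apart.

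Between 37.7% and 75.5% of spots were well above background, and the lowest share belonged to the sample labelled heterozygous replicate 3. At its 3′ probe Brd2 read 13.10, 12.98, 12.64 and 12.70 in the wildtype, and 11.92, 11.83, 12.57 and 11.70 with the gene trap. The difference was −0.85 (SE 0.190, adjusted p in limma 0.390). An exact two-sided permutation test, which shuffled the samples without regard to dye or array, gave p = 0.0286, the least such shuffling allows. A second Brd2 probe (A_55_P1953545, starting at base 1265 of the transcript) exceeded background clearly in 2 samples of the wildtype and 3 with the gene trap, and gave 0.29 (SE 0.170). The mean of both probes gave −0.28, and the 3′ probe gave −1.03 without replicate 3. Relative to wildtype of the same dye, Brd2 stood at −0.95, −1.01 and −1.14 in heterozygous replicates 1, 2 and 4 and at −0.30 in replicate 3. Replicate 3 thus lay just under the lowest wildtype value. That sample also stood apart in transcripts of other tissue, as given below, so results are given with and without it. Of 25325 probes tested, 1 passed the adjusted threshold (0.00395%), a probe of Btbd9.

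A probe shows 60 bases of 1 transcript, and its last 30 are printed here for the members the results turn on, because they fix which stretch of the transcript was measured. They are written 5′ to 3′ in the sense of the transcript, in mm9 coordinates, and capitals mark the polyadenylation hexamer AATAAA.
Pde10a, probe A_51_P419017, chr17:9175025-9175054, plus strand: ctacaggtatgctctttcagtctatctggg
Pde10a, probe A_55_P2090484, chr17:9174507-9174536, plus strand: aaggttgaagactgatcctgaagtgacgtc
Pde1b, probe A_55_P1974827, chr15:103360454-103360483, plus strand: gccagagatcAATAAAgaagggagaccggc
Pde2a, probe A_55_P2105542, chr7:108661298-108661327, plus strand: tttgtacatgagAATAAAtctatttctttc
Ppp1r1b, probe A_55_P2026275, chr11:98218995-98219024, plus strand: acacagtggggggagcctggttctccttgt
Adcy5, probe A_55_P2047305, chr16:35304428-35304457, plus strand: tctgagcaaaagaaaatatttattaaataa
Gng7, probe A_55_P1988018, chr10:80411369-80411398, minus strand: ctccatAATAAAagcctcgattttcctttt
Arpp21, probe A_52_P38208, chr9:112083795-112083824, minus strand: gtatacagtacatggaatgtattgcttccc

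The hexamer lay in the probes of Pde1b, Pde2a and Gng7, 14, 12 and 18 bases before the probe's end. It was present in 3 of the 19 member probes (15.8%) and in 12.6% of all 39429 probes on the printed strand, and in 2 (10.5%) and 4.03% on the other strand. The 2 bright Pde10a probes start at bases 3198 and 2680 of their transcript, whereas a dimmer probe starts at base 7597. Exon and UTR annotation of this build was not used here.

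**Figure D1:**
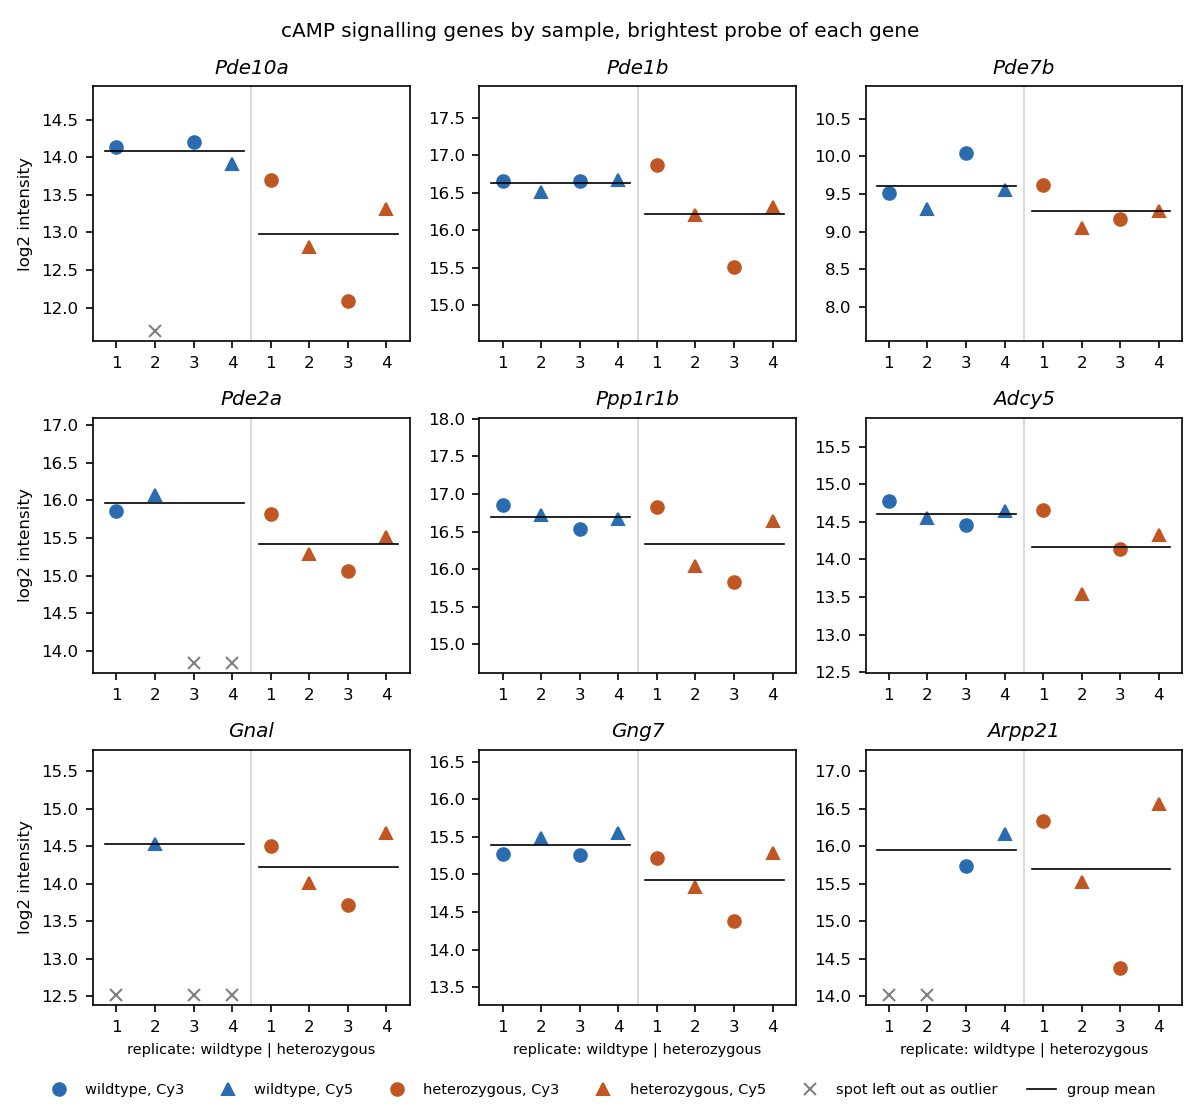
Normalised log2 intensity (y axis) of the brightest probe of each of the 9 genes in the 4 wildtype and 4 heterozygous samples (x axis), with circles for Cy3, triangles for Cy5, crosses at the base for spots left out as outliers and a line at each genotype's mean. Pde10a lies lower in each of the 4 heterozygous samples than in the 3 measured wildtype samples, and heterozygous replicate 3 is the lowest point for most genes.

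No member passed the adjusted threshold, and 16 of the 19 probes had a difference below 0, with 3 above 0. Over all 25325 tested probes 53.7% lay below 0. The median over the 19 probes was −0.36, with a range from −1.17 to 0.24, and the median over all tested probes was −0.02. Adjusted p in limma ran from 0.425 to 0.913.

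At an unadjusted p under 0.05, 3 member probes were lower in heterozygous samples, beside 4.83% of all tested probes, and 0 were higher, beside 4.06%. These were both bright Pde10a probes and 1 Gng7 probe. Of the 15 member probes measured in all 8 samples, 2 had all 4 heterozygous values under all 4 wildtype values, beside 2.92% of all such probes, and 0 had all 4 above, beside 1.9%. Within each dye, 5 of the 15 had every heterozygous value below every wildtype value, beside 6.41% of all such probes, and 0 had every value above, beside 4.23%. The 14 member probes well above background in every sample all had a difference below 0, with a median of −0.39. Of these, 10 were measured in all 8 samples, and the others had wildtype spots left out as outliers. Among the others, the Gnal probe A_55_P2119633 kept 1 wildtype value and gave 0.39 with the outlier spots kept.

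Golf and its gamma subunit come first in the pathway. At the Gnal probe with all samples measured (A_55_P2119628, starting at base 2901 of the transcript), wildtype values were 12.24, 12.16, 12.43 and 12.34, and heterozygous values were 12.15, 11.95, 10.61 and 12.13. The genotypes did not overlap, although heterozygous replicates 1 and 4 lay close under the lowest wildtype sample and replicate 3 lay far below the rest. The difference was −0.58 (SE 0.319, adjusted p = 0.621), and it was −0.20 without replicate 3 (adjusted p = 0.528).

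The brighter Gnal probe, A_55_P2119633, kept a single wildtype value, 14.52, because the spots of wildtype replicates 1, 3 and 4 were marked as outliers. Its heterozygous values were 14.50, 14.00, 13.71 and 14.68, on both sides of that value. The fitted difference of −0.18 (SE 0.447) rests on the Cy5 samples, and with the outlier spots kept it was 0.39. The direction of Gnal is therefore given by its dimmer probe alone.

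Gng7, the gamma subunit that Golf needs in striatum, was measured at 3 probes. At the brightest, A_55_P1988018, wildtype values were 15.27, 15.48, 15.26 and 15.56, and heterozygous values were 15.22, 14.83, 14.37 and 15.28. Within each dye both heterozygous samples lay below both wildtype samples, by the smallest margin in replicate 1. The difference was −0.47 (SE 0.189, adjusted p = 0.535), 72.3% of the wildtype level, and −0.29 without replicate 3.

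The other Gng7 probes, which start at bases 389 and 121 of their transcripts, gave −0.25 (SE 0.156) and −0.35 (SE 0.154). Replicate 4 was the lowest heterozygous sample there, at −0.42 and −0.49 relative to wildtype, while replicates 1, 2 and 3 lay between −0.17 and −0.32. The order of the heterozygous samples therefore differed between the 3′ probe and these 2. Leaving out replicate 3 left them at −0.28 and −0.37.

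Adcy5, the main adenylyl cyclase of the striatum, had 3 probes within about the same stretch of its transcript. At the brightest, A_55_P2047305, wildtype values were 14.78, 14.56, 14.45 and 14.64, and heterozygous values were 14.66, 13.54, 14.13 and 14.32. Replicate 1 lay within the wildtype range and replicate 2 was lowest. The difference was −0.44 (SE 0.211, adjusted p = 0.580) and −0.37 without replicate 3.

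The other Adcy5 probes gave −0.23 (SE 0.364) and −0.37 (SE 0.225), and there replicate 3 was the lowest, at −1.42 and −0.80 relative to wildtype. At A_66_P120414 replicates 1 and 4 lay above wildtype, at 0.41 and 0.29, and the difference was 0.20 without replicate 3. The Adcy5 probes thus disagreed on which heterozygous sample was lowest, and 1 of them had the opposite sign without a single sample.

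Pde10a, a phosphodiesterase for cAMP and cGMP that is concentrated in projection neurons, had the 2 lowest differences of the 19 probes. It was the only member on chromosome 17, which also carries Brd2 with its gene trap. Any part of this shared chromosome in the difference was not tested. At A_55_P2090484 wildtype values were 12.24, 12.09, 12.35 and 12.24, and heterozygous values were 11.77, 11.00, 10.13 and 11.34. All heterozygous samples lay below all wildtype samples, and replicate 3 lay lowest. The difference was −1.17 (SE 0.316, adjusted p = 0.425), 44.4% of the wildtype level.

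At the brighter probe A_51_P419017 the measured wildtype values were 14.14, 14.20 and 13.90, with replicate 2 left out as an outlier spot, and heterozygous values were 13.70, 12.81, 12.09 and 13.31. Again no heterozygous value reached a wildtype value. The difference was −1.10 (SE 0.372, adjusted p = 0.508), and with the outlier spot kept it was −1.11. Without replicate 3 the probes gave −0.80 (SE 0.160, adjusted p = 0.294) and −0.63 (SE 0.194, adjusted p = 0.371).

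Relative to wildtype of the same dye, the 2 bright Pde10a probes agreed on the order of the heterozygous samples. The brighter one stood at −0.47, −1.09, −2.08 and −0.59 in replicates 1 to 4 and the other at −0.53, −1.16, −2.17 and −0.83. Among the brightest probes Pde10a was the lowest in all 4 heterozygous samples, of 9 genes in replicates 2 and 4 and of 8 in replicates 1 and 3, where Gnal had no wildtype value of that dye. The dimmer probe, A_55_P2000379, exceeded background clearly in 2 samples of each genotype and gave −0.49 (SE 0.289).

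Pde1b, a calcium- and calmodulin-dependent phosphodiesterase, had a single probe. Wildtype values were 16.65, 16.51, 16.66 and 16.67, and heterozygous values were 16.86, 16.20, 15.51 and 16.31. Replicate 1 lay above every wildtype sample and the other 3 below every one. The difference was −0.40 (SE 0.258, adjusted p = 0.656) and −0.12 without replicate 3.

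Pde2a, a cGMP-stimulated phosphodiesterase, kept wildtype values of 15.86 and 16.07 in replicates 1 and 2, with replicates 3 and 4 left out as outlier spots. Heterozygous values were 15.81, 15.28, 15.06 and 15.51, and all 4 lay below the 2 measured wildtype values. The difference was −0.55 (SE 0.235, adjusted p = 0.573) and −0.40 without replicate 3. With the outlier spots kept, which read 15.73 and 16.11, it was −0.52 and replicate 1 overlapped the wildtype.

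Pde7b, a phosphodiesterase specific for cAMP, read 9.51, 9.30, 10.05 and 9.55 in wildtype, and 9.62, 9.05, 9.17 and 9.27 with the gene trap at its brighter probe. Replicate 1 lay within the wildtype range and the other 3 below it. The difference was −0.32 (SE 0.163, adjusted p = 0.596) and −0.22 without replicate 3. The dimmer probe gave 0.17 (SE 0.328), with wildtype replicate 3 at 6.58 and the other wildtype values between 7.94 and 8.33, and it was −0.21 without that wildtype sample.

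Ppp1r1b, which encodes DARPP-32, read 16.85, 16.72, 16.53 and 16.67 in wildtype, and 16.83, 16.04, 15.83 and 16.63 with the gene trap. Replicates 1 and 4 lay within the wildtype range, and replicates 2 and 3 lay below it. The difference was −0.36 (SE 0.228, adjusted p = 0.655) and −0.15 without replicate 3.

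Arpp21, which encodes a small phosphoprotein target of protein kinase A and longer RNA-binding forms, was the gene with the least uniform probes. At the brightest, A_52_P38208, the measured wildtype values were 15.73 and 16.17, with replicates 1 and 2 left out as outlier spots, and heterozygous values were 16.34, 15.53, 14.37 and 16.56. Heterozygous replicates 1 and 4 lay above both wildtype values and replicates 2 and 3 below both. The difference was −0.25 (SE 0.571, adjusted p = 0.907) and 0.22 without replicate 3.

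The other Arpp21 probes, which lie elsewhere in the gene, gave 0.21 (SE 0.193) and 0.24 (SE 0.120, adjusted p = 0.595). At A_55_P1997525 replicates 1, 2 and 4 stood at 0.28, 0.46 and 0.54 relative to wildtype and replicate 3 at −0.42. At the dim A_55_P2016937 all 4 heterozygous samples stood above 0, between 0.04 and 0.43. Together with the dim Pde7b probe these were the 3 member probes with a difference above 0.

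**Figure D2:**
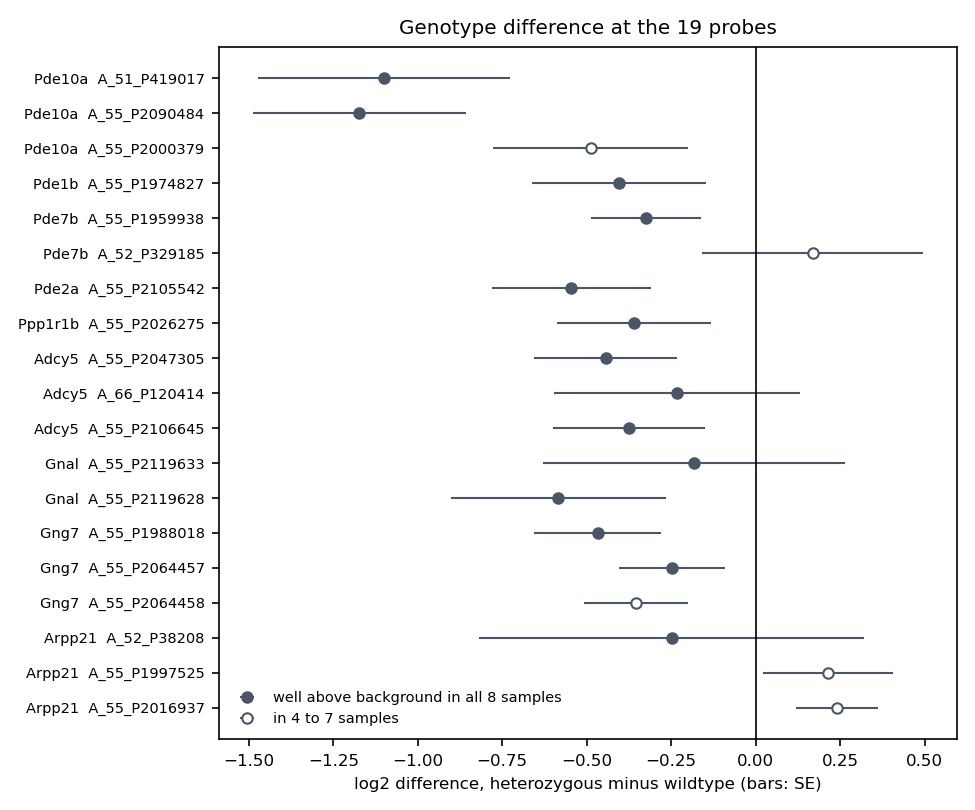
Heterozygous minus wildtype difference on the log2 scale (x axis) for each of the 19 member probes (y axis), with bars of 1 SE; filled points mark probes well above background in all 8 samples and open points those in 4 to 7. The 14 filled points all lie below 0, with the 2 bright Pde10a probes at −1.17 and −1.10, and the 3 points above 0 are open. Of the filled points 10 were measured in all 8 samples, and the others lack wildtype spots left out as outliers.

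The heterozygous samples were far from alike. Averaged over the brightest probe of each gene, the level relative to wildtype of the same dye was 0.03, −0.69, −1.03 and −0.18 in replicates 1 to 4. Wildtype samples stayed within −0.04 and 0.04, but a wildtype value whose partner spot was left out is 0 by construction. With outlier spots kept, wildtype samples lay between −0.10 and 0.10. The heterozygous levels were then 0.13, −0.64, −0.90 and −0.13. Replicates 2 and 3 were thus low and replicate 1 lay near the wildtype level. Of the 18 probes with values for all heterozygous samples, replicate 3 was the lowest at 13 and replicate 1 the highest at 11.

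The median over the 9 genes was −0.40 with all samples and −0.22 without replicate 3, with 1 of the 9 genes and 5 of the 19 probes above 0. It was −0.63 without replicate 1, −0.30 without replicate 2 and −0.63 without replicate 4. At an unadjusted p under 0.05 the number of member probes, in either direction, was 11 of 19 without replicate 1, beside 11.5% of all probes tested in that fit. With all samples it was 3 of 19, beside 8.88%, and without replicate 3 it was 3 of 19, beside 11.6%. No fit without 1 sample brought a member past the adjusted threshold.

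The 9 genes varied together from sample to sample, with the genotype difference kept in. With dye means removed, the correlation of each gene with the mean of the others was 0.99 for Gng7, 0.95 for Ppp1r1b, 0.93 for Gnal and Pde1b, 0.92 for Pde10a, 0.90 for Pde2a, 0.88 for Arpp21, 0.79 for Adcy5 and 0.75 for Pde7b. These are descriptions over the 5 to 8 samples each gene was measured in, and all genes share those samples. The genotype difference, below 0 at the brightest probe of all 9 genes, enters every one of these correlations. For Gnal the Cy3 mean came from heterozygous samples alone. No such values for other genes were set beside these.

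**Figure D3:**
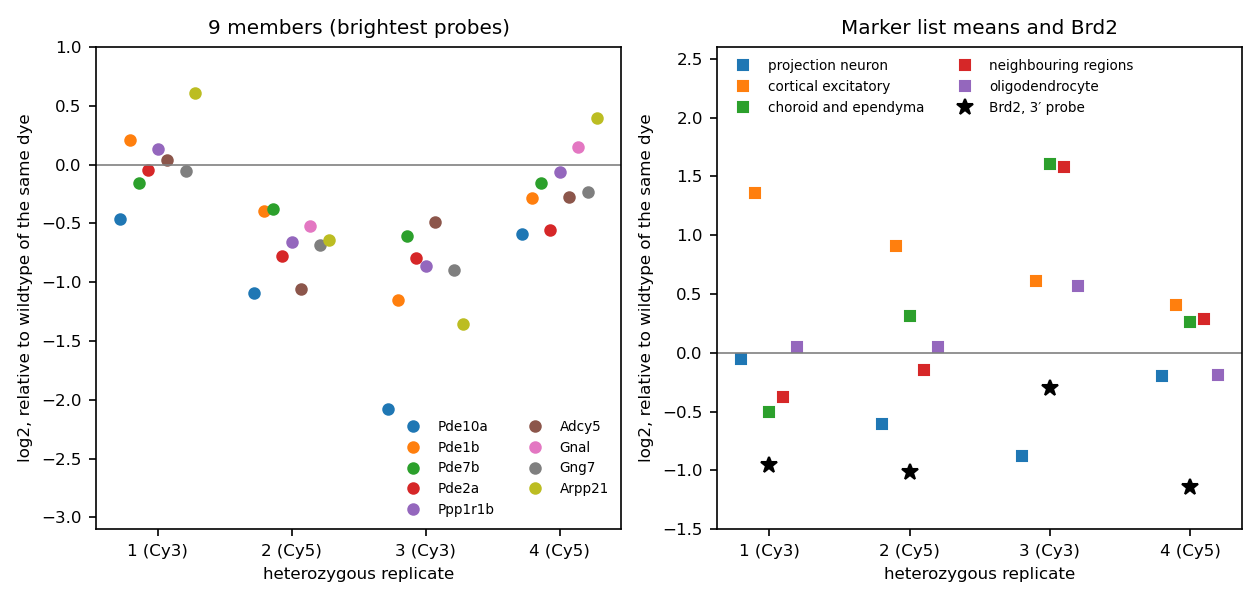
Left, the log2 level of the brightest probe of each of the 9 genes in the 4 heterozygous samples (x axis) relative to wildtype samples of the same dye (y axis), 1 point per gene (Gnal has no Cy3 wildtype value to set it against); right, the mean log2 level of 5 marker lists, and Brd2 as a star, on the same scale. The mean of the 9 genes is 0.03, −0.69, −1.03 and −0.18 in replicates 1 to 4, and replicate 3 stands highest for the choroid plexus list at 1.61.

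Marker genes of the tissue were read beside these values. Other markers of striatal projection neurons, with the 9 genes left out, were below 0 at 26 of 26, with a median of −0.40, and their mean level was −0.05, −0.61, −0.88 and −0.20 in heterozygous replicates 1 to 4. Penk, the enkephalin precursor, and Scn4b, a sodium channel subunit, had differences of −0.37 and −0.41. The level of this list thus followed that of the 9 genes, and without replicate 3 its median was −0.17, with 4 of 26 above 0. Each of its 26 genes was well above background in at least 6 of the 8 samples.

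Markers of cortical excitatory neurons were above 0 at 16 of 17 tested, with a median of 0.78 and mean levels of 1.36, 0.90, 0.61 and 0.40 in heterozygous replicates 1 to 4 against −0.33 to 0.33 in wildtype. Only 7 of the 17 were well above background in all 8 samples, and their median was 0.27, with 6 above 0. Over the alternative settings the median of the list lay between 0.27 and 1.49, and without replicate 3 it was 0.86. Its brightest genes, Lmo4 and Sv2b, gave −0.39 and 0.27, and Lmo4 was the gene below 0. Of the other 10 genes, 9 were not well above background in every wildtype sample, so the levels of this list cannot be ranked across the heterozygous samples. Its part in the differences of the 9 genes was not tested.

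Markers of choroid plexus stood at −0.51, 0.31, 1.61 and 0.26 and those of hypothalamus, thalamus, pallidum and septum at −0.38, −0.15, 1.58 and 0.28 in heterozygous replicates 1 to 4, against −0.15 to 0.15 and −0.14 to 0.14 in wildtype. At the choroid plexus list 11 of 14 genes were above 0, and at the neighbouring regions 7 of 10. Of these lists 5 genes each were well above background in all 8 samples, with medians of 0.20 and 0.08. Both were highest in replicate 3, the sample with the lowest level of the 9 genes. Oligodendrocyte markers were also highest there, at 0.57, with 10 of 13 genes above 0. Without replicate 3 the medians of these 3 lists were −0.02, −0.08 and 0.0075. Their part in the differences of the 9 genes was not tested.

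Astrocyte, microglial and endothelial markers had medians of −0.03, −0.15 and 0.001, and interneuron markers had a median of −0.01 with 5 of 13 above 0. The interneuron genes were not uniform, with 3 higher and 1 lower at an unadjusted p under 0.05, beside 4.06% and 4.83% of all tested probes. Cck, Pvalb and Vip gave 1.61, 1.58 and 0.96, and Slc5a7 gave −0.66. The mean level of this list was 0.31, 0.27, 0.35 and 0.08 in heterozygous replicates 1 to 4, against −0.14 to 0.14 in wildtype. Red blood cell genes were below 0 at 3 of 3, with a median of −0.48 and their lowest level, −0.99, in replicate 4.

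The rest of the pathway was read from lists of its parts. The counts below at an unadjusted p under 0.05 stand beside 4.83% of all tested probes lower and 4.06% higher. None of the listed genes passed the adjusted threshold, and the medians lay nearer to 0 than that of the 9 genes in every part. These were −0.13 for 17 receptors that raise or lower cAMP, −0.19 for 21 other G protein subunits, −0.15 for 19 other phosphodiesterases, −0.08 for 17 subunits, inhibitors and anchors of protein kinase A, −0.09 for 26 genes around DARPP-32 and −0.08 for 10 CREB family genes. The other adenylyl cyclases were the exception in sign, with a median of 0.32 over 8 genes.

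Among the receptors 12 lay below and 5 above 0, and 1 was lower at an unadjusted p under 0.05. Adora2a, the adenosine receptor of indirect-pathway neurons, gave −0.43 (SE 0.168), and Adora1, an adenosine receptor that lowers cAMP, gave 0.33 (SE 0.151). For Adora2a wildtype replicate 2 was left out as an outlier spot. It read 13.39, within the heterozygous range of 13.10 to 13.91. For Adora1 wildtype replicates 1 and 2 were left out, which read 12.81 and 13.54. Drd1 and Drd2, the dopamine receptors that define the direct and indirect pathways, gave −0.53 (SE 0.343) and −0.28 (SE 0.295), and heterozygous replicate 3 stood at −1.47 and −1.04. Without that sample the median of the receptors was 0.02 and that of the genes around DARPP-32 was 0.0013, and without heterozygous replicate 2 that of the kinase genes was 0.02.

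Of the other G protein subunits 13 lay below and 8 above 0, with 2 lower and 1 higher at an unadjusted p under 0.05. Gnb4, a beta subunit, gave −0.48 (SE 0.168) and Gng5, a gamma subunit, −0.33 (SE 0.113). The higher gene was Gng2, another gamma subunit, at 0.67 (SE 0.241). Gnas, the stimulatory alpha subunit most cells use in place of Golf, gave 0.30 (SE 0.202), with heterozygous replicates 1, 2 and 4 at 0.50, 0.53 and 0.48 and replicate 3 at −0.31.

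Adenylyl cyclases other than Adcy5 lay above 0 at 7 of 8, where 53.7% of all tested probes lay below 0, and 4 of the 8 were higher at an unadjusted p under 0.05, beside 4.06% of all tested probes. Adcy1, a calcium-stimulated cyclase, read 11.55, 12.64, 11.47 and 12.37 in wildtype, and 12.43, 13.74, 12.18 and 12.56 with the gene trap. In Cy3 both heterozygous values exceeded both wildtype values, and in Cy5 replicate 4 lay between the wildtype values. The difference was 0.72 (SE 0.239, adjusted p = 0.487). Adcy8, Adcy6 and Adcy4 gave 0.46, 0.36 and 0.29, and the Adcy8 probe exceeded background clearly in 2 samples of each genotype.

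Adcy9 was the cyclase below 0, at −0.36 (SE 0.162). The mean level of the 8 cyclases was 0.28, 0.31, 0.15 and 0.28 in heterozygous replicates 1 to 4, so it did not follow the order of the 9 genes. Their median stayed above 0 in all 24 alternative settings, between 0.18 and 0.37. Adcy1 is also abundant in cortex, and markers of cortical neurons were higher in the same samples; their part in this was not tested.

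Phosphodiesterases other than the members lay below 0 at 14 of 19, with 2 lower and 0 higher at an unadjusted p under 0.05. Pde1a, a relative of Pde1b, read −0.25, −0.30, −0.21 and −0.29 relative to wildtype in heterozygous replicates 1 to 4, so the samples that were far apart for Pde10a lay close together here. Its difference was −0.26 (SE 0.0868, adjusted p = 0.487). Pde6d, a prenyl-binding protein named as a phosphodiesterase subunit, gave −0.53 (SE 0.213).

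Genes of protein kinase A split evenly, with 9 below and 8 above 0, and 3 were lower and 2 higher at an unadjusted p under 0.05. The regulatory subunits Prkar2a and Prkar2b differed in sign, at 0.67 (SE 0.208) and −0.40 (SE 0.171). Prkar2b, the type II-beta subunit of neurons, stood at −0.04, −0.65, −0.74 and −0.18 in heterozygous replicates 1 to 4, close to the mean of the 9 genes in order. Akap12, an anchoring protein, gave 0.45 (SE 0.166). Akap5, another anchoring protein, gave −0.60 (SE 0.239), and Prkaca, a catalytic subunit, gave −0.23 (SE 0.0965).

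Around DARPP-32, 15 genes lay below and 11 above 0, and 1 was lower and 2 higher at an unadjusted p under 0.05. Ptpn5, the striatum-enriched phosphatase STEP, gave −0.60 (SE 0.219), with 1 sample of each genotype left out, and Ppp3cc, a calcineurin catalytic subunit, gave 0.56 (SE 0.209). Of the CREB family genes 5 lay below and 5 above 0, and 1 was lower and 0 higher at an unadjusted p under 0.05. Among them were Crtc1, a coactivator, at −0.29 (SE 0.114) and Atf4, a stress-responsive factor, at 0.44 (SE 0.201).

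**Figure D4:**
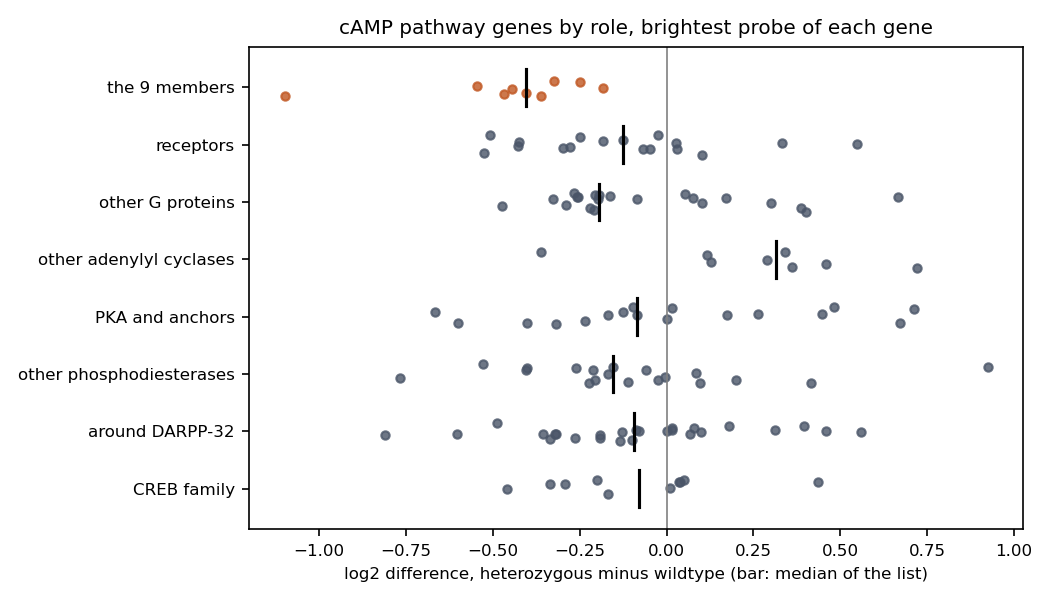
Heterozygous minus wildtype difference on the log2 scale (x axis) for every tested gene of the 9 members and of each pathway list (y axis), 1 point per gene with the median marked. The members have a median of −0.40, the other adenylyl cyclases lie mostly above 0 with a median of 0.32, and the remaining lists have medians between −0.19 and −0.08.

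The 10 genes whose pattern over the 8 samples was most like the mean of the 9, of 8742 genes ranked and with dye means removed, were Rnf34, Prkar2b, Tmem263, Dok4, Mtch1, Dsel, Gap43, Ryr3, Hltf and Zeb1. Pearson's r ran from 0.967 for Zeb1 to 0.990 for Rnf34. All 10 had differences below 0, from −0.58 at Zeb1 to −0.15 at Hltf, and in each of them replicate 3 was the lowest heterozygous sample. Both traits are largely set by the choice of these genes, because the pattern they were matched to kept the genotype difference.

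Promoters in RefSeq (GRCm38.p6), around annotated transcript starts, matched 7 of the 9 genes with 23 entries. The GC box GGGCGG was on either strand of 6 of the 23 (26.1%) and of 35.7% of all 32851 promoters. Counted by gene, 5 of these 7 genes had it, against 10324 of all 27025 genes. The member share was thus lower by entry but higher by gene, and no direction is drawn from it. The full cAMP response element TGACGTCA was in 0 of the 23 and in 1.79% of all promoters.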

How the data were processed

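Striatal RNA of 4 wildtype and 4 heterozygous samples was measured on 4 arrays, each holding 2 samples of 1 genotype in Cy3 and Cy5. Spot intensities were extracted by the authors with Agilent Feature Extraction 10.7.3.1 (array design 026655), per the file headers. In the deposited value table, each entry is the ratio of a spot's background-subtracted median intensity to its column median (every column has a median of 1; found from the values). It is not log-transformed and was used as an alternative only.

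Mean and background intensities were corrected with normexp (offset 50) and normalised by loess and Aquantile in limma 3.58.1 (R 4.3.3) to log2 values per channel; the log2 values were computed here from the deposited intensities. Control and outlier spots (230 to 978 outliers per sample) were left out, and no spot was saturated. A probe was tested if well above background in at least 4 of the 8 samples. Genotype and dye were fixed effects and the array was a random block in lmFit and eBayes (consensus correlation −0.01), with Benjamini-Hochberg adjustment over 25325 probes and a threshold of 0.05. It was tested on simulated data. Each array held 1 genotype, so effects of single arrays and of genotype cannot be fully told apart.

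The 9 members, the gene lists and the tests were chosen with earlier results of these data known. The rule named all member probes, Brd2 and the 2 genes of each pathway list with the smallest p. It also named the 2 brightest genes of each marker list (given for projection and cortical neurons) and the 10 most alike genes. Btbd9, Drd1, Drd2, Gnas, Gng2, Adcy4, Adcy6, Adcy9, Akap5, Prkaca and Prkar2b as a kinase subunit were added after their values were seen. So were the interneuron genes Cck, Pvalb, Vip and Slc5a7. Gene names came from the files, and by accession from RefSeq for 27234 of 39429 probes. Like-numbered samples share a dye. With group means removed their correlations were 0.11, 0.18, 0.20 and 0.20. With dye means also removed they were 0.17, −0.30, −0.19 and −0.26. Removing both means from 8 samples itself pushes such correlations below 0, so whether the numbers pair samples cannot be told.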

Additional observations from a re-analysis of the deposited data

Results flagged for a closer look

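Among 72 sets of 4 samples of 1 genotype examined, 2 held a sample far from the other 3. Single probes were taken after removal of dye means, and mean levels relative to wildtype of the same dye. Such wildtype levels mirror each other, or nearly so, and could not be flagged. The rate of about 1 in 20 that chance gives for independent values therefore does not hold over all 72 sets. Wildtype replicate 2 lay at 0.0880 for Pde1b, with the next wildtype sample at 0.233. The sample labelled heterozygous replicate 3 lay at −0.38 at the Arpp21 probe A_55_P1997525, with the next heterozygous sample at 0.21.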

How the results depend on the processing

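No member probe passed the adjusted threshold in any of 24 alternative settings (smallest adjusted p in limma 0.283), and the median of the 9 genes stayed below 0 in all 24, between −0.68 and −0.22. The number of probes past the threshold, 1 in the reported fit, was 3 with the scanner's processed signals and quantile scaling. It was 0 with normexp and 75th percentile scaling, the value table, no filter, the brightest probe per gene, the replicate block (samples blocked by number) and Cy3 alone, and 0 to 1 when single samples were left out. Under the replicate block the member median was −0.44 and no member call differed.

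Some member probes changed sign. The dim Pde7b probe gave −0.21 without wildtype replicate 3 (range −0.21 to 0.50 when single samples were left out). Adcy5 at A_66_P120414 gave 0.0359 in Cy5 alone and 0.20 without heterozygous replicate 3 (range −0.56 to 0.20). Gnal at A_55_P2119633 gave 0.39 with outlier spots kept and 0.10 without heterozygous replicate 2 (range −0.71 to 0.10). Arpp21 at A_52_P38208 gave 0.22 without heterozygous replicate 3 (range −0.67 to 0.22), and A_55_P1997525 gave −0.0693 in Cy3 alone. The planned mean of all tested probes of a gene gave 1.26 for Arpp21 and 0.38 for Gnal; where spots are left out, that mean takes different probes in different samples. A mean over fully measured probes only, chosen after seeing those values, gave 0.23 for Arpp21 and −0.58 for Gnal and left 0 probes past the threshold. Except for that construction and for fewer samples, the causes were not tested. Few samples and dim spots in Cy3 limit the precision.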
